A study of Mus musculus with 3 samples.

Results

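The lysyl oxidases (Lox and Loxl1 to Loxl4) and the lysyl hydroxylases (Plod1, Plod2 and Plod3) were followed in Pthrp-mCherry+ cells of the mouse tooth root. The 8 genes were found by symbol, and all 8 were among the 21446 gene identifiers that the 3 libraries shared. Each library held sorted cells of mandibular molars from Pthrp-mCherry knock-in mice of both sexes, most of the study's lines being backcrossed to C57BL/6, at P15, P25 or 8 weeks. Every group carried the reporter allele, whose positive cells the labels call cementoblasts and precursors, and neither reporter-negative cells nor wild-type mice were part of these libraries. Cells of several mandibles were pooled into 1 library per age, so that no age had a replicate, and no difference between ages was tested.

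Both enzyme families act on the lysines of collagen. Lysyl hydroxylases add a hydroxyl group to lysines of the collagen chain inside the endoplasmic reticulum, and lysyl oxidases are copper enzymes that oxidise lysines and hydroxylysines outside the cell, which starts the cross-links between collagen molecules. Plod2 hydroxylates the telopeptides at the ends of the chain, the form that gives the stable cross-links of mineralised tissue, while Plod1 acts on the helix. Plod3 also carries glycosyltransferase activity. Lox is the main enzyme for fibrillar collagen, Loxl1 is tied to elastic fibres, and Loxl2, Loxl3 and Loxl4 share scavenger receptor domains that Lox and Loxl1 lack. In cementum, whose matrix is mostly collagen I, Ibsp and Ifitm5 are genes of the mineralising cells.

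Cells were grouped by the unique molecular identifiers (UMIs) of single genes that are not among the 8. A cell entered a gate with at least 2 UMIs of the gate gene and a set number per 10000 UMIs, which was 30 for Ibsp, 10 for Rgs5 and 2 for Ifitm5, Hand2 and Pappa2. A cell with Ptprc or Epcam UMIs past a threshold entered no other gate. A cell in both the Ibsp and the Ifitm5 gate counted as Ifitm5-gated, so Ibsp-gated cells were below the Ifitm5 threshold. Wherever 3 values stand together they are in the order P15, P25 and 8 weeks. The Ibsp gate held 1145, 1043 and 718 cells, the Ifitm5 gate 593, 807 and 289, and the Hand2 gate, named for a transcription factor gene, 179, 329 and 248. The gates of Rgs5, a pericyte gene, and Pappa2 held 205 and 412 cells at P15 but no more than 16 at a later age. Each therefore entered the main comparisons with its P15 sum only. A further 27, 421 and 438 cells passed both the Ibsp and the Hand2 threshold and were kept apart as Ibsp-and-Hand2-gated cells.

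Median depth was 14253.5, 15834 and 8712.5 UMIs per cell, and the libraries shared between 13 and 26 cell barcodes by pairs. The counts of P25 came from another Cell Ranger version and a larger gene reference, which cannot be told apart from the age. Levels are given as CPM, the UMIs of a gene scaled to the same total of UMIs in every sum, and a UMI marks a transcript at its 3′ end, so a level is not scaled by gene length. Intervals are exact, at 95%, and cover counting error only. Ibsp itself is high in both mineralising gates, and the 4-gene Ibsp list summed to between 11379 and 19131 CPM in Ifitm5-gated cells. Ibsp-gated cells carried more of the Hand2 list (Hand2, Nts, Alx1 and Itgbl1) at the later ages, with 66.5, 731 and 859 CPM. The immune list summed to 365, 28.4 and 19.0 CPM in Ibsp-gated cells and to 155, 29.7 and 14.2 CPM in Ifitm5-gated cells. Dspp, the odontoblast gene, stood at 33.6 CPM, 32.9 CPM and 0 in Ifitm5-gated cells. The part of these other genes in the results below was not tested, except where a value without those cells is given.

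Plod2 and Loxl2 were the most abundant members in Ibsp-gated cells, and in Ifitm5-gated cells at P15. In Ifitm5-gated cells at P25 and 8 weeks Lox was more abundant than Loxl2. Of the UMIs of the 8 genes in Ibsp-gated cells, Plod2 held 35.1%, 34.0% and 35.0%, and Loxl2 held 25.5%, 27.5% and 29.7%. Lox held 21.2%, 18.1% and 14.6% in Ibsp-gated cells, against 17.8%, 31.1% and 35.3% in Ifitm5-gated cells. Lox therefore took a smaller share at each later age in the first gate and a larger one in the second. In Hand2-gated cells Plod2 held 41.9%, 50.8% and 55.4% of the member UMIs and Lox 11.4%, 6.33% and 2.47%. Loxl4 held at most 0.652% in these 3 gates. The 5% of cells with most Lox held 29.1%, 42.5% and 50.5% of its UMIs in Ibsp-gated cells and 32.4%, 20.2% and 20.2% in Ifitm5-gated cells. The median cell held 1, 0 and 0 Lox UMIs in the first gate and 1, 9 and 4 in the second. For Plod2 the same shares were 21.6%, 24.7% and 25.1% in Ibsp-gated and 20.5%, 20.5% and 20.2% in Ifitm5-gated cells. For Loxl1 they were 35.2%, 33.1% and 34.5% in Ibsp-gated cells. Such a share also rises where a gene has few UMIs per cell.

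**Figure D1:**
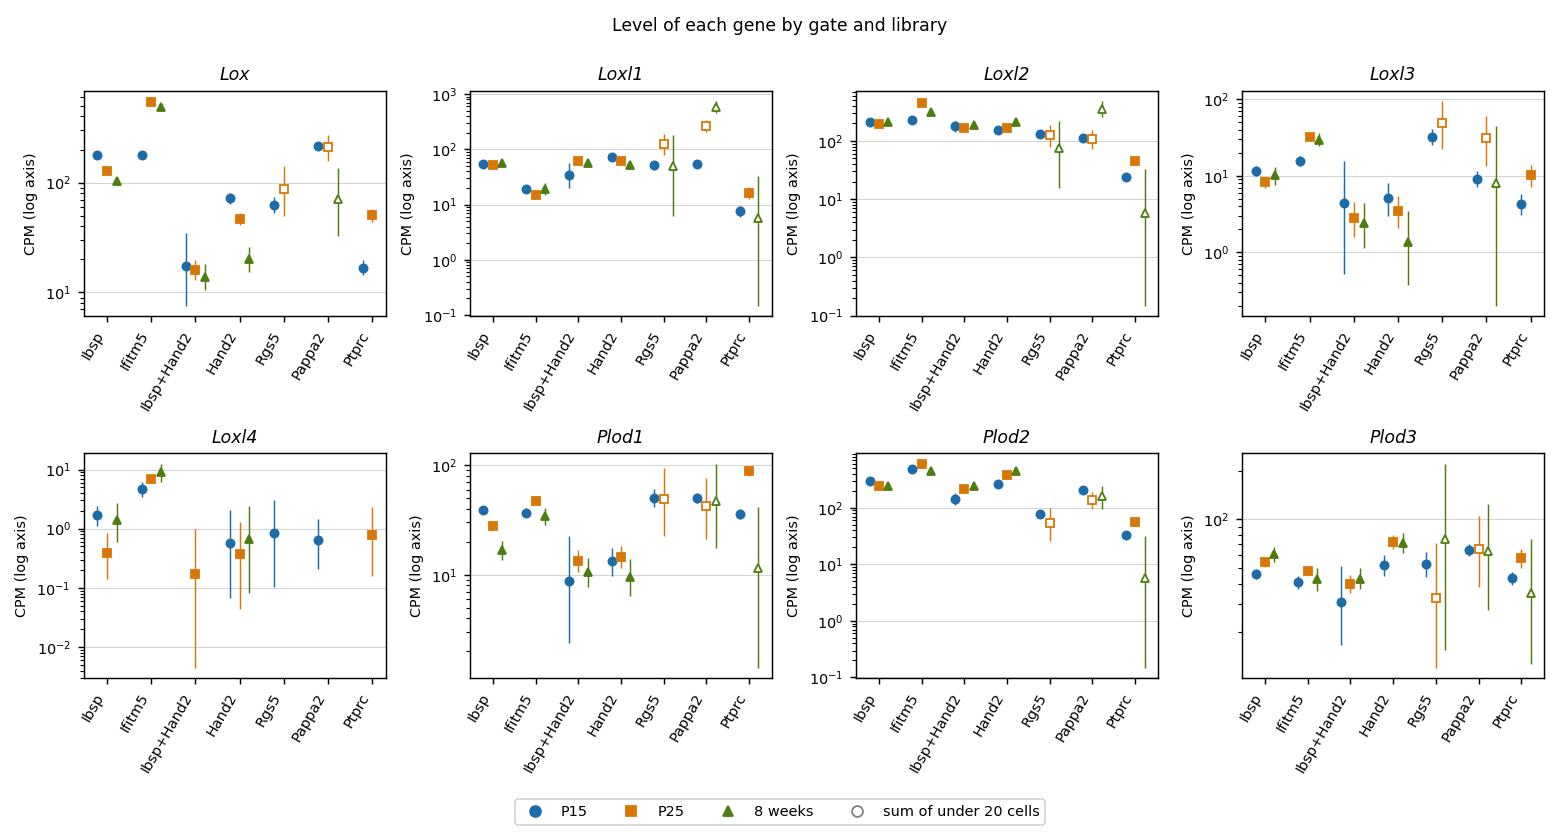
Level of each of the 8 genes in CPM (log axis) by gate, with P15, P25 and 8 weeks as separate points and bars for the exact 95% Poisson interval. Hollow points are sums of under 20 cells, sums with no UMI are not drawn, and the Ptprc gate holds immune cells as a background. Lox at P25 and 8 weeks sits highest in the Ifitm5 gate, and Loxl1 sits lower in the Ifitm5 gate than in the Ibsp and Hand2 gates at every age.

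Free RNA puts UMIs of abundant genes into cells that do not make them, and immune cells (Ptprc-gated, 798, 212 and 18 cells) served as the background. After thinning each cell to 3000 UMIs, 52.6%, 47.4% and 45.7% of Ibsp-gated cells held a Plod2 UMI, against 5.71%, 7.11% and 0% of immune cells. For Lox the shares were 34.8%, 19.0% and 17.0% in Ibsp-gated cells, 30.9%, 67.2% and 66.9% in Ifitm5-gated cells and 3.12%, 7.11% and 0% in immune cells. Without thinning, the Lox shares were 64.6%, 40.8% and 26.3% in Ibsp-gated cells and 66.1%, 91.4% and 91% in Ifitm5-gated cells. The median depth was 14391, 12903 and 8178.5 UMIs in Ibsp-gated cells, 17080, 22287 and 11448 in Ifitm5-gated cells and 10361, 15539.5 and 10379 in immune cells. Thinning left out 158 of 718 Ibsp-gated and 11 of 289 Ifitm5-gated cells at 8 weeks as too shallow. The 0 of 15 immune cells left at 8 weeks allows a share of up to 20% (3 counts of the total), so that age gives little background. For Plod1 the share at P25 was higher in immune cells, 22.7%, than in Ibsp-gated (8.29%) and Ifitm5-gated cells (14.4%). At P15 it was 8.42% in immune cells against 12% and 10.8%, and at 8 weeks 0 of 15 immune cells stood against 4.11% and 7.91%. Plod3 was found in 9.38%, 10.4% and 13.3% of immune cells against 13.2%, 15.7% and 18.2% of Ibsp-gated cells. For Loxl3 the share at P25 was 2.37% in immune cells against 2.12% of Ibsp-gated, 0.915% of Hand2-gated and 7.66% of Ifitm5-gated cells. At P15 it was 0.408% in immune cells against 3.35%, 2.84% and 3.76%. Loxl4 at P25 was found in 0.474% of immune, 0% of Ibsp-gated and 2.26% of Ifitm5-gated cells. The P25 levels of Loxl3 in the Ibsp and Hand2 gates and of Loxl4 in the Ibsp gate cannot be told from background. In epithelial (Epcam-gated) cells the levels of Plod1 lay between 12 and 19.9 CPM and those of Plod3 between 19.5 and 22.1 CPM.

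Ifitm5-gated cells were then compared with Ibsp-gated cells, the pair of gates nearest to the 2 cementoblast classes that the study set apart. In this comparison Loxl4 and Plod2 were higher and Loxl1 was lower in Ifitm5-gated cells, and the other 5 members did not pass the test. UMIs were summed per library and gate and tested with edgeR's quasi-likelihood test on 11 sums, with the library as a block and Benjamini-Hochberg adjustment over 12921 genes. Of all genes, 5.82% were called higher and 4.45% lower, so 2 members higher and 1 lower of 8 stood beside a background of 10.3% called in either direction. The median log2 fold change of the 8 members was 1.00 and that of all genes −0.01. With P25 left out, 18 of 12619 genes were called in this comparison, and with 8 weeks left out 206 of 13379. Calls were thus lost over all genes in these fits, not only among the members.

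Loxl1 had 53.2, 52.1 and 57.6 CPM in Ibsp-gated cells and 19.1, 15.2 and 19.0 CPM in Ifitm5-gated cells. The groups did not overlap, and the difference between gates was larger than the spread between libraries. How many of all genes had groups that did not overlap was not counted, for this or any other pair of gates. The log2 fold change was −1.43 (SE 0.13, edgeR adjusted p = 0.00154). The call on Loxl1 was lost without P25 (adjusted p = 0.0758), with gate thresholds halved (adjusted p = 0.102), when cells of several gates were kept (adjusted p = 0.113) and with sums of at least 5 cells (adjusted p = 0.22), while the fold change stayed between −1.22 and −1.42 in these 4 fits. In the same order the 4 fits called 18, 431, 399 and 535 of all genes, against 1327 in the main fit. Loxl1 is encoded on chromosome 9 of GRCm38, from 58287738 to 58313186 on the minus strand (ENSMUSG00000032334).

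Plod2 stood at 293, 238 and 248 CPM in Ibsp-gated cells and at 484, 595 and 442 CPM in Ifitm5-gated cells. The lowest Ifitm5 sum was above the highest Ibsp sum, a separation not counted over all genes. The log2 fold change was 1.15 (SE 0.21, edgeR adjusted p = 0.0208), and without P25 or without 8 weeks it was 0.92 (adjusted p = 0.262) and 1.19 (adjusted p = 0.0792). Plod2 (ENSMUSG00000032374) lies on chromosome 9 of GRCm38, from 92542223 to 92608428 on the plus strand, in the same annotation.

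Loxl4 was rare everywhere, with 29, 6 and 8 UMIs in the Ibsp sums and 52, 147 and 33 in the Ifitm5 sums. As levels these are 1.69, 0.385 and 1.40 CPM against 4.63, 6.98 and 8.98 CPM, and the intervals of the 3 ratios all left out 1. The P25 level in Ibsp-gated cells, 0.385 CPM, cannot be told from background. The ratio at 8 weeks was 6.43, and 2.20 without the cells that held Hand2, Nts or Alx1 UMIs. The log2 fold change was 2.80 (SE 0.49, edgeR adjusted p = 0.0142). It was no longer called without P25 (adjusted p = 0.195) or without 8 weeks (adjusted p = 0.129), fits that called fewer of all genes. Only 42 of 593, 111 of 807 and 31 of 289 Ifitm5-gated cells held a Loxl4 UMI. Loxl4 (ENSMUSG00000025185) lies on chromosome 19, from 42593982 to 42612813 on the minus strand.

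Lox, the main collagen cross-linking enzyme, had a ratio near 1 between the gates at P15 and a higher one at the later ages. It had 178, 127 and 104 CPM in Ibsp-gated cells against 180, 539 and 487 CPM in Ifitm5-gated cells, so the Ifitm5 to Ibsp ratio was 1.01 at P15 (interval 0.956 to 1.07), 4.26 at P25 (4.06 to 4.47) and 4.69 at 8 weeks (4.27 to 5.16). Over the 3 ages the log2 fold change of Lox was 1.84 (SE 0.58, edgeR adjusted p = 0.105), which did not pass. Without P15 it was 2.42 with an adjusted p of 0.00242. The ratios at the later ages moved with the cells that held Hand2, Nts or Alx1 UMIs: without those cells in either gate they were 1.00, 2.25 and 1.77, and the log2 fold change of Lox was 0.98 (adjusted p = 0.421). Lox (ENSMUSG00000024529) is on chromosome 18, from 52516067 to 52529867 on the minus strand.

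Loxl2 and Loxl3 had their lowest ratio between these gates at P15 and their highest at P25. Loxl2 stood at 213, 193 and 210 CPM in Ibsp-gated cells and at 228, 451 and 314 CPM in Ifitm5-gated cells, with a log2 fold change of 0.86 (SE 0.25, edgeR adjusted p = 0.0779). Loxl3 stood at 11.5, 8.21 and 10.1 CPM against 15.8, 32.2 and 29.7 CPM (log2 fold change 1.55, SE 0.39, adjusted p = 0.0509). The P25 level of Loxl3 in Ibsp-gated cells cannot be told from background. For both genes every Ifitm5 sum was above every Ibsp sum, a separation not counted over all genes, and neither passed. Without P15 both were called, with adjusted p of 0.039 for Loxl2 and 0.000461 for Loxl3, and DESeq2 called both on all 3 libraries (adjusted p of 0.0116 and 0.00584). Loxl3, which was nearest to the threshold, was also called by edgeR with thresholds doubled, with a filter on cells and on thinned counts. It was called too without Ibsp-gated cells that held an Ifitm5 UMI, with 3 gates only and with sums of at least 5 cells. For fits on thinned counts the cells were gated again after thinning. The Ifitm5 gate then held 343, 546 and 176 cells and the Ibsp gate 1285, 1456 and 888. Without the cells that held Hand2, Nts or Alx1 UMIs, the ratio of Loxl3 was 1.45, 2.53 and 1.48 and that of Loxl2 1.08, 1.83 and 1.11. The groups then overlapped for both genes. Loxl2 had 264 CPM in Ibsp-gated cells at 8 weeks and 235 CPM in Ifitm5-gated cells at P15. For Loxl3 the same 2 sums had 19.6 and 16.1 CPM. Loxl2 (ENSMUSG00000034205) lies on chromosome 14 from 69609068 to 69695834, and Loxl3 (ENSMUSG00000000693) on chromosome 6 from 83034173 to 83052562, where it overlaps Htra2 on the other strand.

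Plod1 had 39.3, 28.2 and 16.8 CPM in Ibsp-gated and 37.0, 47.2 and 34.3 CPM in Ifitm5-gated cells, with overlapping groups and a log2 fold change of 0.72 (SE 0.22, edgeR adjusted p = 0.0845). Its ratios of 0.941, 1.68 and 2.05 were 0.913, 1.09 and 1.02 without the cells that held Hand2, Nts or Alx1 UMIs. Plod3 had 46.2, 54.6 and 60.8 CPM against 41.0, 48.0 and 42.7 CPM and a log2 fold change of −0.08 (SE 0.10, adjusted p = 0.674). On total counts the median gene was at −0.21 between these gates, against −0.01 with TMM factors, and the split of all calls changed from 752 higher and 575 lower to 409 higher and 1120 lower. The same 3 members were called on total counts. Plod1 (ENSMUSG00000019055) is on chromosome 4, from 147909753 to 147936767, and Plod3 (ENSMUSG00000004846) on chromosome 5, from 136987019 to 136996648, with Znhit1 on its other strand.

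**Figure D2:**
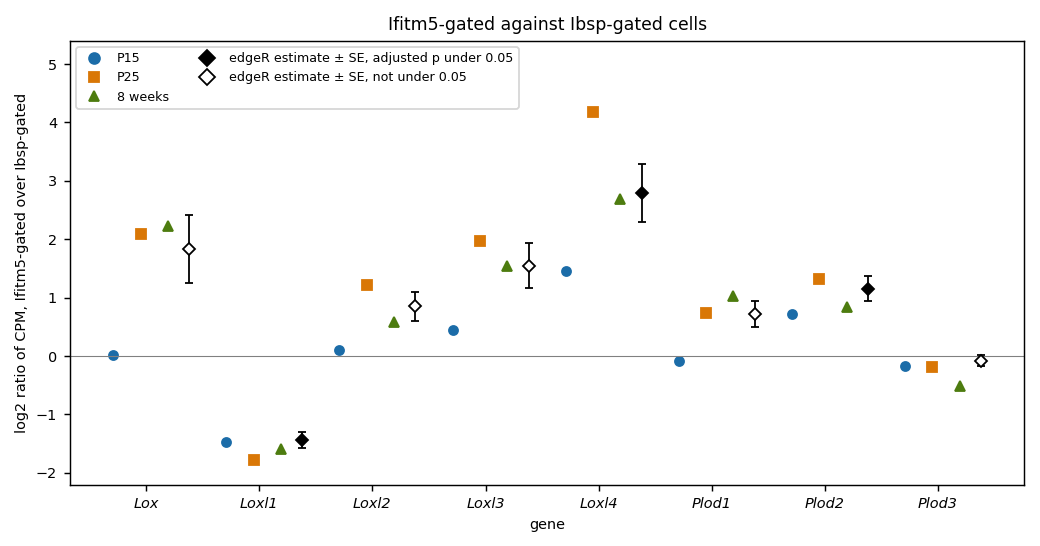
Log2 ratio of CPM in Ifitm5-gated over Ibsp-gated cells for each gene, by library (coloured points), and the edgeR log2 fold change with its SE (diamonds, filled where the adjusted p was under 0.05). Lox is at 0.02 at P15 and at 2.09 and 2.23 at P25 and 8 weeks, and Loxl1 is the gene below −1 in all 3 libraries.

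The genes around the members were taken as lists. Of 15 genes for collagen modification and folding in the endoplasmic reticulum, 7 were higher and 1 was lower in Ifitm5-gated cells, with a median log2 fold change of 0.53 against −0.01 over all genes. For this and the following lists, 5.82% of all genes were called higher and 4.45% lower in this comparison. Those higher with the largest changes were Fkbp10, a chaperone that acts with Plod2, at 0.91 (SE 0.15), P4ha1 at 0.72 (SE 0.15) and P3h4 at 0.67 (SE 0.13), and the gene that was lower was P4ha3 at −1.85 (SE 0.16). P4ha1 and P4ha3 encode prolyl hydroxylase subunits. Of 12 tested genes for extracellular processing and partners of lysyl oxidases, 3 were higher and 2 lower (median 0.15). Pcolce, an enhancer of procollagen cleavage, and Adamts14, a procollagen protease, were higher by 1.23 each (SE 0.22 and 0.29), and Efemp2, a fibulin of elastic fibres, by 0.53 (SE 0.13). Postn, a matrix protein of the periodontal ligament, was lower at −2.72 (SE 0.18), as was Fbln5, another elastic fibre fibulin, at −1.82 (SE 0.17).

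Among 7 substrates, Col3a1 was lower at −1.68 (SE 0.19) and Col2a1, the cartilage collagen, higher at 2.76 (SE 0.55). Col2a1 had 8.43, 0.962 and 1.57 CPM in Ibsp-gated and 105, 1.95 and 2.72 CPM in Ifitm5-gated cells, so its level stood apart at P15. Col1a1 had a log2 fold change of 1.37 (SE 0.36, edgeR adjusted p = 0.0608) and did not pass (median of the list 0.56). Of 4 copper transport genes, Slc31a1, the copper importer, was higher at 0.62 (SE 0.11) and none was lower (median −0.09). Of 12 tested hypoxia response genes, a group that includes targets of the factor known to raise Lox and Plod2, none was called by edgeR at an adjusted p under 0.05 or by DESeq2, while 5 had an unadjusted p under 0.05 in edgeR, and their median was 0.22.

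Ifitm5-gated cells were also set against the mean of the other 4 gates, 2 of which (Rgs5 and Pappa2) entered with a single P15 sum. Here 6 members were higher and 1 was lower, where 13.2% of all genes were called higher and 10.1% lower (23.2% either way). On total counts, where the median gene was at −0.22, the split of calls over all genes went from 1704 higher and 1299 lower to 903 higher and 2607 lower, and 7 members were called, with Plod3 in place of Plod1. The edgeR log2 fold changes were 3.40 for Loxl4 (SE 0.51, adjusted p = 0.00315), 2.44 for Lox (SE 0.56, adjusted p = 0.0236), 1.55 for Plod2 (SE 0.19, adjusted p = 0.00202), 1.54 for Loxl3 (SE 0.37, adjusted p = 0.0255), 1.23 for Loxl2 (SE 0.23, adjusted p = 0.0102) and 0.71 for Plod1 (SE 0.21, adjusted p = 0.0456). Loxl1 was lower, at −1.38 (SE 0.13, adjusted p = 0.000452), and Plod3 was not called (−0.29, SE 0.09, adjusted p = 0.0559). Without P25, and likewise without 8 weeks, 4 members were called, and Lox, Loxl3 and Plod1 were not among them. Over all genes, 825 of 12619 were called without P25 and 1639 of 13379 without 8 weeks. Lox was not called either when cells with a Hand2, Nts or Alx1 UMI were left out of the Ibsp and Ifitm5 gates (edgeR adjusted p = 0.0705). Nor was it called on counts thinned before the cells were gated (adjusted p = 0.0672) or with no filter on low counts (adjusted p = 0.0704). Plod1, the member nearest to the threshold, was not called without the library block (adjusted p = 0.164). Nor was it called with other size factors (RLE), with the deepest cells left out or without Ibsp-gated cells that held an Ifitm5 UMI.

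Hand2-gated cells had less Loxl3 and Plod1 and more Loxl1 than the mean of the other 4 gates, where 6.28% of all genes were called lower and 6% higher (12.3% either way). On total counts the split over all genes went from 775 higher and 812 lower to 1063 higher and 615 lower, and these 3 members and Plod2 were called. The levels of Loxl3 were 5.07, 3.48 and 1.36 CPM, from 18, 19 and 4 UMIs, with a log2 fold change of −2.42 (SE 0.49, edgeR adjusted p = 0.0258). Its P25 level, 3.48 CPM, cannot be told from background. Plod1 stood at 13.2, 14.6 and 9.55 CPM in this gate, below its level in immune and near that in epithelial cells, with a log2 fold change of −1.71 (SE 0.24, adjusted p = 0.0073). Loxl1 had 71.9, 62.6 and 52.5 CPM and a log2 fold change of 0.59 (SE 0.12, adjusted p = 0.0196). Against Ibsp-gated cells alone, the ratio of Loxl1 was 1.35, 1.20 and 0.911, and the interval at 8 weeks (0.748 to 1.11) held 1. With sums of at least 5 cells, the difference of Loxl1 was −0.01 with an edgeR adjusted p of 0.998. Loxl1 was not called with halved or doubled thresholds, with cells of several gates kept or on thinned counts either. All of these settings except doubled thresholds also took in Rgs5 or Pappa2 sums of later ages. On thinned counts, where the newly gated Hand2 cells numbered 72, 96 and 84, Loxl3 was not called (edgeR adjusted p = 0.414). None of the 3 was called without P25, and Loxl3 was not called without 8 weeks (adjusted p = 0.0897). The fit without P25 called 247 of 12619 genes in this comparison, and that without 8 weeks 522 of 13379. Lox in this gate, at 71.9, 47.1 and 20.1 CPM, was below every Ibsp sum but did not pass (log2 fold change −1.90, SE 0.56, edgeR adjusted p = 0.0765). It was called with cells of several gates kept, by DESeq2, with 3 gates only and with sums of at least 5 cells. It was also called without P15, where only the Ibsp and Ifitm5 gates were left to compare with. The P25 level of Lox was below that of immune cells, 50.3 CPM. Those immune cells held 1419 CPM of the Ibsp list, against 410 CPM in epithelial cells, where all lysyl oxidases together had 36.7 CPM.

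Ibsp-gated cells against the mean of the other 4 gates gave no member called by edgeR, 1 at an unadjusted p under 0.05 and none by DESeq2, where edgeR called 1.63% of all genes higher and 0.635% lower (2.27% either way). The 8 members had a median log2 fold change of 0.01 in this comparison. Loxl1 came nearest, at 0.41 (SE 0.12, edgeR adjusted p = 0.132). Without P15 the Rgs5 and Pappa2 gates had no sum of at least 20 cells, so Ibsp-gated cells stood against the Ifitm5 and Hand2 gates only. Loxl1 and Plod2 were called in that fit, in which 628 of 11736 genes were called.

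Cells that passed both the Ibsp and the Hand2 threshold had the lowest Lox of the mineralising cells. Lox stood at 17.5, 16.2 and 14 CPM, from 8, 93 and 58 UMIs, against 178, 127 and 104 CPM in Ibsp-gated cells, so the ratios were 0.0986, 0.128 and 0.135. The P25 level was below that of immune cells and the P15 level was near it (16.8 CPM), so these levels cannot be told from background. After thinning, 0%, 4.04% and 2.78% of these cells held a Lox UMI. Loxl1 did not share this pattern, at 35.0, 60.2 and 55.6 CPM, nor did Loxl2, at 177, 170 and 184 CPM. In a fit with these cells as a further class (14 sums, 13092 genes, where 0.0535% of genes were called higher and 1.7% lower, 1.76% either way), the log2 fold change of Lox was −3.11 (SE 0.69, edgeR adjusted p = 0.0883) and that of Loxl1 was 0.01 (SE 0.16). Plod3 was called lower (−0.49, SE 0.11, adjusted p = 0.0455), and Plod1 was not (−1.19, SE 0.26, adjusted p = 0.051). Without P15 the adjusted p of Lox was 0.00268, and DESeq2 called Lox too, with an adjusted p of 2.38e-07. Without the library block, edgeR called Lox (adjusted p = 0.0431) and not Plod3 (adjusted p = 0.474). Plod3 was not called with any one of the 3 libraries left out, with thresholds halved or doubled, or on total counts. This comparison was added after the gates had been counted.

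Levels of the Rgs5 and Pappa2 gates are descriptions, since each had 1 sum of at least 20 cells. At P15 Rgs5-gated cells had 76.4 CPM of Plod2, the lowest of the 5 gates, and 32.2 CPM of Loxl3, the highest, from 75 UMIs. Lox stood at 62.3 CPM there. Pappa2-gated cells at P15 had the highest Lox of the 5 gates, 214 CPM, and 53.8 CPM of Loxl1. At 8 weeks the 13 Pappa2-gated cells held 74 Loxl1 UMIs, 587 CPM, and at P25 the 16 cells held 69, 267 CPM. The 74 UMIs lay in 8 of the 13 cells, with 18 in the cell that held most. With sums of at least 5 cells, the edgeR fit of 15 sums gave Loxl1 a log2 fold change of 2.16 (SE 0.48, adjusted p = 0.0462) in Pappa2-gated cells, where 2.79% of all genes were called, and gave Plod2 −2.51 (SE 0.35, adjusted p = 0.000447) and Loxl3 1.56 (SE 0.44, adjusted p = 0.0375) in Rgs5-gated cells, where 10.1% were called.

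The members were next set against Col1a1, the transcript of the main substrate chain, as UMIs per 1000 Col1a1 UMIs. Col1a1 itself had 18859, 16586 and 15828 CPM in Ibsp-gated cells and 22153, 65138 and 39115 CPM in Ifitm5-gated cells, so most genes had fewer UMIs per Col1a1 UMI in the second gate. Of all 12921 genes, 80.6% had a lower ratio to Col1a1 in Ifitm5-gated than in Ibsp-gated cells in all 3 libraries and 1.22% a higher one. Of the 8 members, Loxl1, Loxl2, Plod1 and Plod3 were lower in all 3 and Loxl4 was higher in all 3. An exact permutation test of 3 pairs cannot give a two-sided p below 0.25, so no test of the ratio is given. In immune cells the lysyl oxidases together had 18.4, 28.0 and 22.7 UMIs per 1000 Col1a1 UMIs, against 24.2, 22.9 and 24.2 in Ibsp-gated cells. The lysyl hydroxylases had 39.2, 45.9 and 102 in immune against 20.1, 19.4 and 20.6 in Ibsp-gated cells. The 8-week immune values rest on 2 and 9 UMIs. The ratio alone thus does not set mineralising cells apart from immune cells.

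The ratio of Lox to Col1a1 went both ways between the mineralising gates. Lox had 9.41, 7.63 and 6.55 UMIs per 1000 Col1a1 UMIs in Ibsp-gated cells and 8.11, 8.27 and 12.4 in Ifitm5-gated cells, a mean log2 difference of 0.28 ± 0.59 (SD, n = 3 libraries), which is smaller than the spread between libraries. It was lower in Ifitm5-gated cells at P15 and higher at P25 and 8 weeks (intervals at 8 weeks 6.04 to 7.11 and 11.9 to 13.0). The intervals of these gates did not overlap at any age. Loxl3 differed by 0.15 ± 0.14 (SD, n = 3), with 0.610, 0.495 and 0.640 against 0.712, 0.494 and 0.758. Loxl1 was far lower per Col1a1, with 2.82, 3.14 and 3.64 against 0.861, 0.233 and 0.487 (mean log2 difference −2.79 ± 1.02, SD, n = 3).

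For Plod2 the ratio changed direction between ages. It was 15.6, 14.4 and 15.7 in Ibsp-gated cells and 21.8, 9.13 and 11.3 in Ifitm5-gated cells, thus higher at P15 and lower later. Loxl2 stood at 11.3, 11.6 and 13.3 against 10.3, 6.93 and 8.03. In Hand2-gated cells Plod2 was at 26.4, 23.5 and 25.3 per 1000 Col1a1 UMIs, above the Ibsp gate in all 3 libraries (mean log2 difference 0.72 ± 0.04, SD, n = 3). Lox in Hand2-gated cells stood at 7.18, 2.93 and 1.13, lower at each later age. Cells gated by both Ibsp and Hand2 had 2.01, 1.60 and 1.35 Lox UMIs per 1000 Col1a1 UMIs. The difference from Ibsp-gated cells was −2.25 ± 0.02 (SD, n = 3), so the low Lox of these cells was not matched by an equally low Col1a1. The P15 value rests on 8 Lox UMIs, so this SD is smaller than the counting error. Lox in these cells could not be told from background.

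**Figure D3:**
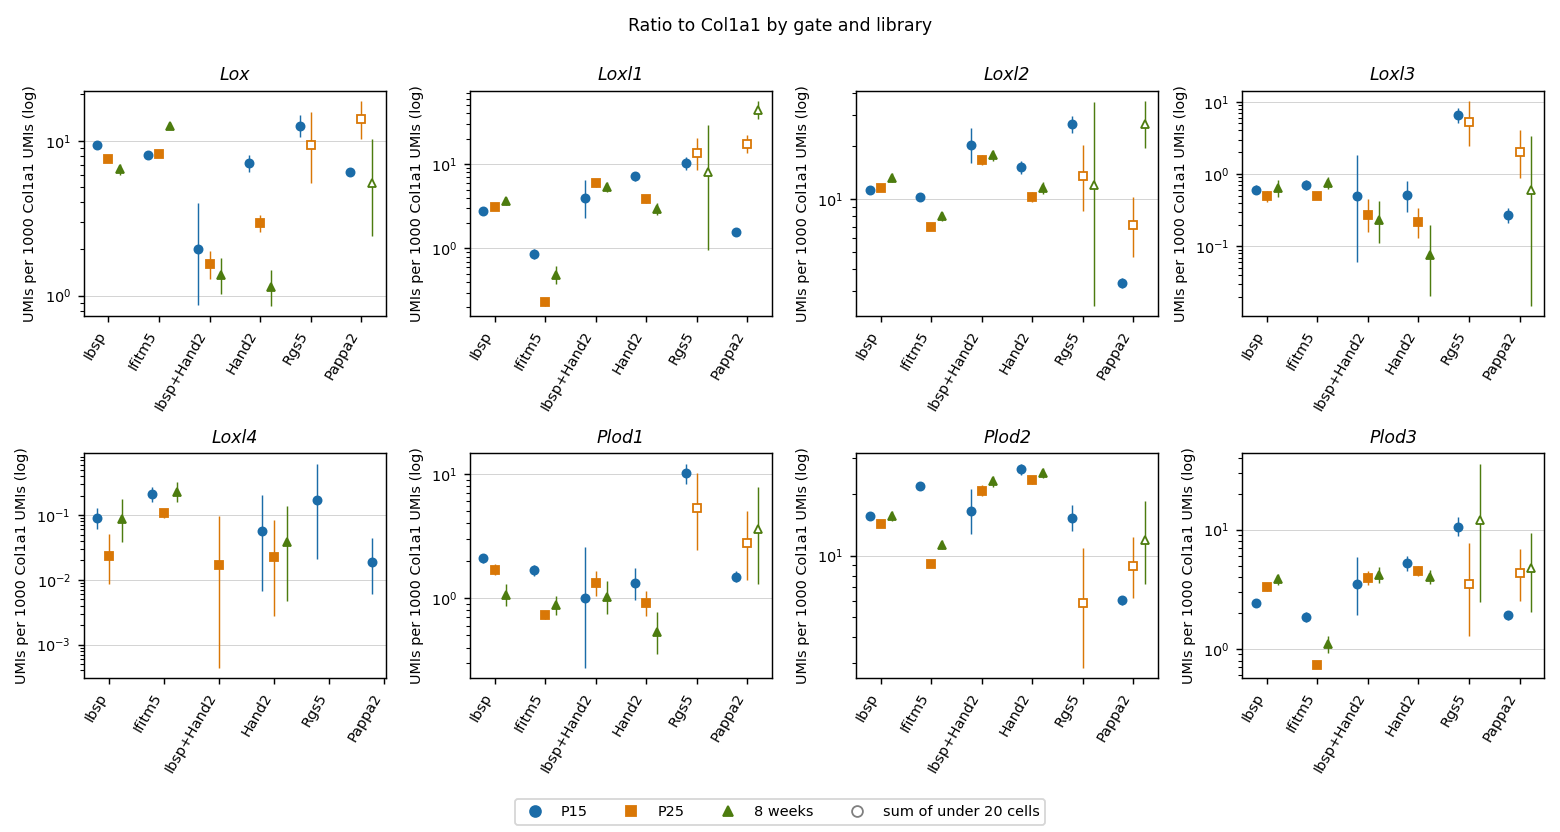
UMIs of each gene per 1000 Col1a1 UMIs (log axis) by gate and library, with exact 95% intervals. Hollow points are sums of under 20 cells and sums with no UMI are not drawn. The Lox ranges of the Ibsp and Ifitm5 gates overlap across ages, but their intervals do not overlap within any age. Loxl1 is lower in the Ifitm5 gate at every age.

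Within the gates, cells were divided into 3 equal groups by their Col1a1 share, and the groups with the highest and lowest share were compared on counts without Col1a1. In Ibsp-gated cells, 7 of the 8 members were higher in the high Col1a1 cells in all 3 libraries, against 26.2% of all genes, and Loxl1 was lower in all 3, against 19.0%. Lox differed most among the members with UMIs in every sum, with 96.8, 26.9 and 37.4 CPM in the low group and 284, 245 and 235 CPM in the high group, a mean log2 ratio of 2.47 ± 0.83 (SD, n = 3). Loxl1 went the other way, from 65.1 to 46.6, 59.3 to 46.8 and 69.9 to 49.8 CPM (−0.44 ± 0.08, SD, n = 3). Loxl4 had 3, 0 and 0 UMIs in the low group and 18, 5 and 8 in the high one, and for Loxl3 at P15 the interval of the ratio (0.837 to 1.78) held 1.

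In Ifitm5-gated cells, 6 members were higher in all 3 libraries, against 14% of genes, and none was lower in all 3, against 31.5%. Lox had a mean log2 ratio of 1.87 ± 0.70, Plod2 of 1.25 ± 0.31 and Loxl2 of 0.97 ± 0.20 (SD, n = 3 each). Loxl4 had 2 and 43 UMIs in the low and high groups at P15, 6 and 104 at P25 and 3 and 19 at 8 weeks, so its few transcripts lay mostly in the cells with most Col1a1. Plod3 differed by −0.12 ± 0.21 (SD, n = 3), within the spread between libraries. Loxl1 was lower in the high group at P25 and 8 weeks (19.3 to 10.2 and 26.7 to 13.1 CPM), while at P15 it had 14.4 and 17.3 CPM with an interval that held no difference.

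**Figure D4:**
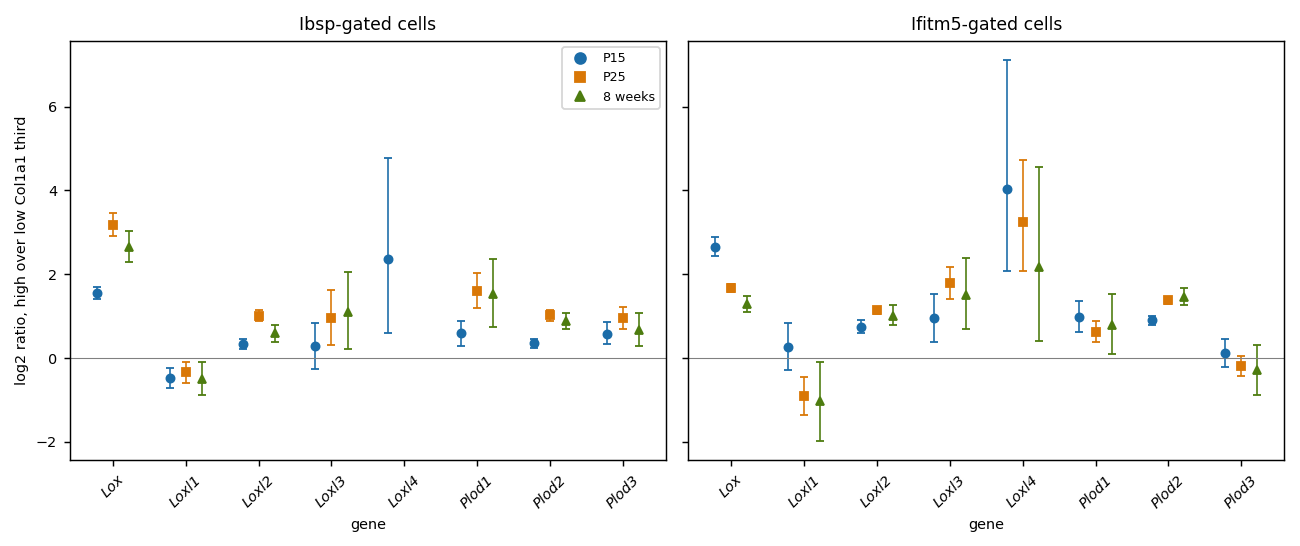
Log2 ratio of each gene between the cells with the highest and the lowest Col1a1 share (3 equal groups) in Ibsp-gated (left) and Ifitm5-gated (right) cells, by library, with exact 95% intervals. Lox lies above 1 in every library of both gates, and Loxl1 lies below 0 in all 3 libraries of the Ibsp gate.

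By age, the levels could only be described, with a fold of at least 1.5 between 8 weeks and P15 and an interval without 1 as the rule. In Ibsp-gated cells no member was higher by this rule and 2 were lower, against 8.57% and 9.25% of all genes. In Ifitm5-gated cells 3 were higher and none lower (6.87% and 11.5% of all genes), and in Hand2-gated cells 1 was higher and 2 were lower (11.8% and 9.37%).

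Lox had the widest difference between gates. Its ratio of 8 weeks to P15 was 0.584 (interval 0.534 to 0.638) in Ibsp-gated cells, 0.280 (0.207 to 0.373) in Hand2-gated cells and 2.71 (2.54 to 2.89) in Ifitm5-gated cells. In Ifitm5-gated cells Col1a1 also had a ratio above 1, of 1.77. The lower Lox of Ibsp-gated cells moved with the Hand2 list: in the Ibsp-gated cells without any UMI of Hand2, Nts or Alx1 (1070, 416 and 261 cells), Lox stood at 184, 246 and 273 CPM, a ratio of 8 weeks to P15 of 1.49. The remaining cells were shallower at 8 weeks, with a median of 5599 UMIs. Leaving out the same cells from the Ifitm5 gate gave 184, 552 and 483 CPM, a ratio of 2.63.

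Among the hydroxylases, Plod1 had a ratio of 0.427 (0.341 to 0.529) in Ibsp-gated cells and of 0.927 (0.753 to 1.13) in Ifitm5-gated cells. In Ibsp-gated cells without Hand2, Nts or Alx1 UMIs the ratio of Plod1 was 0.833. Plod2 had 265, 378 and 451 CPM in Hand2-gated cells, a ratio of 1.70 (1.56 to 1.85), against 0.845 in Ibsp-gated and 0.914 in Ifitm5-gated cells. Loxl3 had a ratio of 1.88 (1.47 to 2.40) in Ifitm5-gated cells and Loxl4 of 1.94 (1.21 to 3.06), from 52 and 33 UMIs. Loxl1 had a ratio of 0.999 (0.751 to 1.31) in Ifitm5-gated cells and of 0.731 (0.594 to 0.896) in Hand2-gated cells. Loxl2 had a ratio of 0.987 (0.924 to 1.05) in Ibsp-gated, 1.38 (1.28 to 1.48) in Ifitm5-gated and 1.36 (1.21 to 1.53) in Hand2-gated cells.

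**Figure D5:**
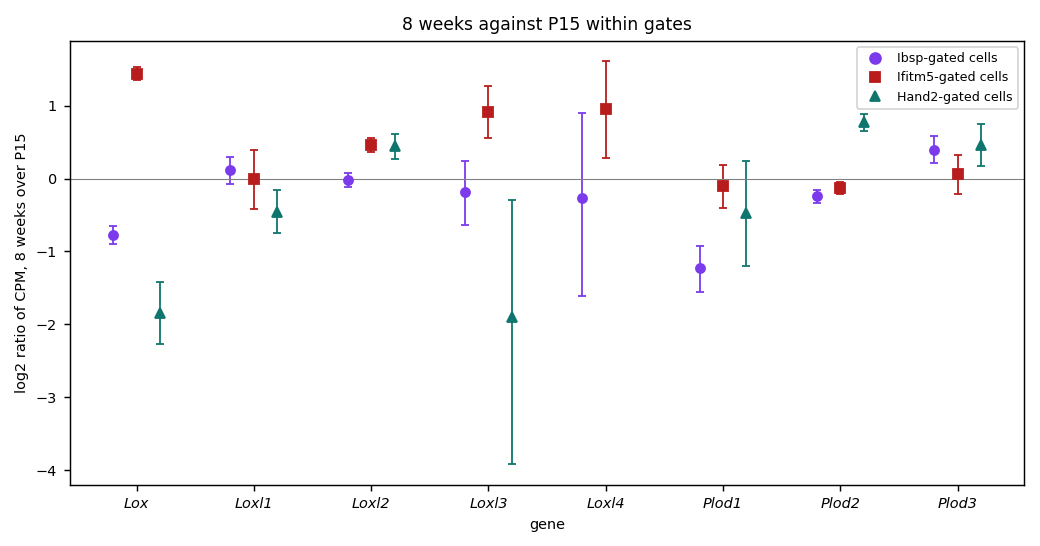
Log2 ratio of CPM at 8 weeks over P15 for each gene within Ibsp-gated, Ifitm5-gated and Hand2-gated cells, with exact 95% intervals and 1 library per age. Lox is at 1.44 in the Ifitm5 gate and at −0.77 and −1.84 in the Ibsp and Hand2 gates, and sums with under 10 UMIs together are not drawn.

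The genes most like each member over the 11 sums were taken by Pearson's r of log2 levels among 2912 genes with a mean of at least 50 CPM, as a description. The 11 sums share 3 libraries and 5 gates. Lox was most like Metrnl (r = 0.965), Rnf7 (0.953) and Ptgis (0.939), and its r with Col1a1 was 0.762. Plod2 was most like Ostc, a subunit of the oligosaccharyltransferase of the endoplasmic reticulum (0.958), with Sdhaf4 (0.955) and Mrps28 (0.944). Loxl2 was most like Gde1 (0.947), Mtss1 (0.936) and Sec11c, a signal peptidase subunit (0.927).

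Loxl4 was most like the gate gene Ifitm5 (0.951), before Dock1 (0.942) and Arl6ip5 (0.940). The sums were formed by Ifitm5 UMIs, so this r restates the higher Loxl4 of that gate and adds nothing to it. Loxl1 was most like Hs2st1 (0.927), Kctd12 (0.923) and Lima1 (0.913), with an r of −0.62 with Col1a1. Loxl3 was most like Atf3 (0.956) and Appbp2 (0.946), and Plod1 like Ier2 (0.970), Socs3 (0.949) and Cd63 (0.945). Atf3, Ier2 and Socs3 are genes of rapid stress and cytokine responses. Plod3 was most like Mpzl1 (0.932), Ctsb (0.922) and B4galt1 (0.906).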

How the data were processed

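For each library, the authors deposited UMI counts per gene and cell from Cell Ranger (6.1.2 per the submitters' processing notes, which name mm10; the file header of P25 names 6.0.1), whole numbers without normalization. All 12926, 8971 and 5192 cells were kept, no doublet caller was run, and cells in several gates were left out apart from the Ibsp-and-Hand2-gated cells. The 8 genes, gates and lists were chosen with earlier results of these data known. Named beside the members were the 3 most similar genes of each (1 is not reported here) and, per list, up to 3 called genes each way.

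UMIs were summed per library and gate of at least 20 cells. 15 sums had been planned, but the Rgs5 and Pappa2 gates reached 20 cells at P15 only, which left 11 sums with total counts between 2326144 and 21059797. These were tested with edgeR 4.0.16 (TMM, filterByExpr, robust quasi-likelihood test, call at an adjusted p under 0.05) in R 4.3.3. Sums of a library came from the same pool of animals, so the library was a block. Deviations from the gate means correlated between 0.413 and 0.765 within a library and between −0.49 and −0.08 across libraries. The 3 deviations of a gate cancel out by construction, so positive values within a library bring negative ones across libraries. The 3 sums of a gate are 3 ages, and the block takes out the shift that the gates of an age share. The p-values therefore cover the spread of the differences between gates over ages, not the spread between ages itself. They cover no spread over ages of the Rgs5 and Pappa2 gates, which entered with 1 sum each. These are 2 of the other 4 gates wherever a gate is set against their mean. DESeq2 1.42.0, other gates, filters, size factors and denominators, and each library left out were alternatives. Both tests were also run on simulated sums. These had no differences between libraries beyond total counts and no gate difference that changed with age. The check therefore does not cover that structure of the real sums. Levels carry Poisson and shares Clopper-Pearson intervals at 95%. Gene positions are from GENCODE M21 (GRCm38). Python 3.11.15, numpy 2.4.6, pandas 2.3.3, scipy 1.17.1 and matplotlib 3.10.9 were used.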

Additional observations from a re-analysis of the deposited data

Results flagged for a closer look

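Lox, Loxl3 and Plod2 had opposite directions between 8 weeks and P15 in different gates, each with an interval that left out 1. The intervals cover counting error only, and how many of all genes had such opposite directions was not counted. With 1 library per age the difference was not tested. The ratio of 8 weeks to P15 of Lox was 2.71 in Ifitm5-gated cells, 0.584 in Ibsp-gated cells and 0.280 in Hand2-gated cells. Without the Ibsp-gated cells that held Hand2, Nts or Alx1 UMIs, the Lox ratio in that gate was 1.49. For Loxl3 it was 1.88 in Ifitm5-gated and 0.269 in Hand2-gated cells, the latter from 18 UMIs at P15 and 4 at 8 weeks. For Plod2 it was 1.70 in Hand2-gated cells, 0.845 in Ibsp-gated cells and 0.914 in Ifitm5-gated cells.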

How the results depend on the processing

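Of 8 members, 3 were called between Ifitm5-gated and Ibsp-gated cells, 5 with gate thresholds doubled and 5 by DESeq2, and the count lay between 0 and 7 with each library left out, being 0 without P25, where 4 members had an unadjusted p under 0.05, and 7 without P15. Over all genes, 1375 of 12651 were called with doubled thresholds and 1236 of 12921 by DESeq2. Without P25 it was 18 of 12619 genes and without P15 2333 of 11736, against 1327 of 12921 in the main fit. Without the library block, 3 members were called too (Loxl1, Loxl4 and Plod2), while 341 genes were called instead of 1327. In the same setting the counts were 0, 6 and 3 for the Ibsp, Ifitm5 and Hand2 gates against the mean of the others. Those 3 comparisons called 94, 1747 and 845 of 12921 genes. With P15 left out, the Rgs5 and Pappa2 gates dropped out too, so the others were then only the rest of the Ibsp, Ifitm5 and Hand2 gates. For the Ibsp gate against the others the count was 0, 1 with only the 3 gates that had 3 sums, and between 0 and 2 with a library left out. With only 3 gates 167 of 11767 genes were called, and without P15, where the count was 2, 628 of 11736. For the Ifitm5 gate the count of members was 7, and between 4 and 7 with a library left out. It was 4 without P25 (825 of 12619 genes called) and without 8 weeks (1639 of 13379), and 7 without P15 (3606 of 11736). For the Hand2 gate the count of members was 3, 1 on thinned counts, 5 by DESeq2, 5 with only 3 gates, and between 0 and 5 with a library left out (0 without P25, with 4 at an unadjusted p under 0.05). Over all genes, 196 of 9271 were called on thinned counts, 1535 of 12921 by DESeq2 and 2952 of 11767 with only 3 gates. Without P25 it was 247 of 12619 genes, and without P15, with 5 members called, 2682 of 11736. For cells gated by both Ibsp and Hand2 the count of members was 1, 2 with thresholds halved, 0 with thresholds doubled (3 at an unadjusted p under 0.05), 4 by DESeq2, and between 0 and 3 with a library left out. Over all genes, 187 of 12718 were called with thresholds halved, 5 of 12180 with thresholds doubled and 510 of 13092 by DESeq2. Without P15, with 3 members called, it was 470 of 11819 genes. The log2 fold change of Plod3 between Ifitm5-gated and Ibsp-gated cells turned to 0.0856 with thresholds doubled and lay between −0.18 and 0.00935 with each library left out, positive without 8 weeks, and that of Loxl1 in the Hand2 gate to −0.0137 with sums of at least 5 cells. The ratio of 8 weeks to P15 of Lox in Ibsp-gated cells turned to 1.49 without cells holding Hand2, Nts or Alx1 UMIs. Members past the fold between P15 and 8 weeks numbered 1 in the Ibsp gate when cells of several gates were kept. They numbered 1 each in the Ifitm5 and Hand2 gates on thinned counts, where the cells were gated again. The cause of these shifts was not tested. Over all genes, 1327 were called between Ifitm5-gated and Ibsp-gated cells, and 341 to 1529 under other settings or 18 to 2333 with a library left out. The same counts were 293, 94 to 522 and 20 to 628 for the Ibsp gate against the others, 3003, 1098 to 3510 and 825 to 3606 for the Ifitm5 gate, 1587, 196 to 2952 and 247 to 2682 for the Hand2 gate, and 230, 5 to 510 and 5 to 470 for cells gated by both Ibsp and Hand2. The count of members with a lower ratio to Col1a1 in every library, 4, kept within 1.5 times under all alternatives run. So did the count of members whose share of cells was above the immune gate in every library, with and without thinning. The Lox shares of Ibsp-gated cells themselves rose without thinning. The alternatives with only 3 gates, sums of at least 5 cells, the deepest cells left out and no Hand2, Nts or Alx1 UMI, and the cells gated by both Ibsp and Hand2, were chosen after seeing the data. With 1 library per age, age and library cannot be told apart, and Loxl4 and Loxl3 are limited by their few UMIs.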
